A study of Mus musculus with 9 samples.

Results

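The genes described here were 40 genes that are imprinted in mouse, outside the group of the insulin-like growth factors and their receptor. They were given as a list of symbols, a rule that uses no measured value, but the list was chosen with earlier results of these data known. Each gene was looked up by its Ensembl identifier. All 40 identifiers were found among the 35771 genes of the deposited table. Of these, 35 passed the filter on low counts that left 13424 genes for testing, and 5 did not.

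RNA was sequenced from mouse embryonic stem cells (ESCs) of mixed background that were homozygous for iMOS T1-Myc and carried RERT, a tamoxifen-activated Cre recombinase. Per the labels, the cells grew on gelatin-coated plates with LIF, and recombination with 20 µM 4-hydroxytamoxifen over 24 h gave mosaic cultures of cells that differ in extra copies of Myc and of the fluorescent marker EYFP. The first group, 2 extra copies, and the second group, no extra copy, were both sorted by EYFP from these mosaic cultures 24 h after the drug was removed, so both had met the drug and the recombinase. The third group, uninduced, was sorted from cultures of the same genotype that were not induced per the titles and the design text, although the labels repeat the treatment text for them. Each group had 3 libraries, called biological replicas by the design text. Nothing says that they were separate cultures, so p-values cover the spread between these libraries, which may be technical. The 3 comparisons share groups and are not independent of each other. In bulk RNA, fewer cells that express a gene and less RNA per cell cannot be told apart, and these counts do not separate the parental alleles.

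An imprinted gene is expressed mainly from the copy inherited from 1 parent, because DNA methylation set in the egg or the sperm marks a control region near it. Imprinted genes lie in clusters, in which genes read from the maternal and the paternal copy often share a control region. Many of them act on growth of the fetus and the placenta, and imprints are known to be unstable in cultured ESCs. The zinc finger protein ZFP57 binds a methylated hexamer in imprinting control regions and recruits TRIM28, which helps to keep the mark through early development. Of the 40 genes, 19 are assigned in textbooks to the maternal copy and 20 to the paternal copy, and Gnas gives different transcripts from both. For some of them, such as Blcap, Copg2, Inpp5f, Ppp1r9a and Trappc9, the parental bias is known only from certain tissues or transcripts.

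The sequences around the start sites show what kind of promoter these genes have. RefSeq windows of 300 bases, from 250 before to 50 after the start on build GRCm38.p6, were found for 31 of the 40 genes, with 44 windows in all. No window was found for Peg10 and Cdkn1c, among others. The hexamer TGCCGC, the binding word of ZFP57, was searched on both strands, on which it reads GCGGCA. It was present in 12 of the 44 windows (27.3%), belonging to 11 genes, against 11.6% of all 32851 windows. The 12 include 2 windows of Mest that cover nearly the same bases and hold the same matches, so that promoter is counted more than once. Among the windows without the hexamer, 2 of Gnas also nearly coincide. The E-box CACGTG, a binding word of MYC and related factors that reads the same on both strands, was present in 3 of 44 (6.82%), against 7.15% of all windows. The windows of the imprinted genes held a median of 15.5 CG pairs, against 7 in all windows, and the hexamer itself holds a CG. A match is a description of the letters and not a binding site. Below are 5 windows of genes whose RNA differed between the groups, picked after their values were seen, and all 5 hold the hexamer. The hexamer is also in windows of the called genes Copg2, Nap1l5 and Snrpn, which are not shown. The windows of further called genes, among them Phlda2, Dlk1, Peg3, Rian, Gnas and Ndn, hold none and are not shown either. Each is written 5′ to 3′ on the strand of its gene, with the hexamer and the E-box in capitals.
Nnat, chr2:157559828-157560127, plus strand: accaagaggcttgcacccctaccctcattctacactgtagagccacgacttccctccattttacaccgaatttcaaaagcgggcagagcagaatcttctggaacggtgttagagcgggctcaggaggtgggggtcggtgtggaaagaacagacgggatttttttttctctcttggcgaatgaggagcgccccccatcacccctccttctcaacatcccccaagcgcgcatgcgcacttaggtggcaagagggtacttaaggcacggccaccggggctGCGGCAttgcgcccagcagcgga
Mest, chr6:30737800-30738099, plus strand: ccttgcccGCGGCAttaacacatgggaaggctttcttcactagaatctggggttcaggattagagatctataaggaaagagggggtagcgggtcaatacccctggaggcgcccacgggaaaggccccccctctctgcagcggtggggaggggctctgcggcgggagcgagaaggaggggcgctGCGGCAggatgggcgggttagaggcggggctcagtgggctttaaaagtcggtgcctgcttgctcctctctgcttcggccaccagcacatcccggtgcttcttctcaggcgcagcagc
Plagl1, chr10:13090582-13090881, plus strand: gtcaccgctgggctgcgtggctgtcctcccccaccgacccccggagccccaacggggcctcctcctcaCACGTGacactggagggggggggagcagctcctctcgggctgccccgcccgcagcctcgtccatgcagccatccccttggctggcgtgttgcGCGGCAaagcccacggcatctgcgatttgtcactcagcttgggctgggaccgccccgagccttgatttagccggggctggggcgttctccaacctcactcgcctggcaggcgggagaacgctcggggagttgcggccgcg
Meg3, chr12:109540746-109541045, plus strand: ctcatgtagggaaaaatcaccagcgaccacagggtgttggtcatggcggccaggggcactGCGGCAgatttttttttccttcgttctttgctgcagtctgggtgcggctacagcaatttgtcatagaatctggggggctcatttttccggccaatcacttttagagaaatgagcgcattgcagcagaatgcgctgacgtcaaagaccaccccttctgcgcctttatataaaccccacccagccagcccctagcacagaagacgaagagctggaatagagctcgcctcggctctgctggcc
Grb10, chr11:12037371-12037670, minus strand: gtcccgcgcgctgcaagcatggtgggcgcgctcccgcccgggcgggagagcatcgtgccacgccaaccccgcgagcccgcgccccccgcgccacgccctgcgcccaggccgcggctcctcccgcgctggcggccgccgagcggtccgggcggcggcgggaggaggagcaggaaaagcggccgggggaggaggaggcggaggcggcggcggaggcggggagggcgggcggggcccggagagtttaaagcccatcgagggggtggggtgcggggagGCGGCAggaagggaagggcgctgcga
Mest carried the hexamer at 2 places in this window, and Nnat, Plagl1, Meg3 and Grb10 carried it at 1 place each. Plagl1 was the only gene of the 5 that also carried an E-box. CG pairs numbered 17 in the Nnat window, 17 in the Mest window, 26 in the Plagl1 window, 13 in the Meg3 window and 45 in the Grb10 window. Mest, Meg3 and Grb10 each have at least 1 further window, from another start, that lies away from the one shown.

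Totals ran from 4165286 to 8872303 expected counts per library, of which the 40 imprinted genes made up 0.312% to 0.406%. Replicate pairs differed by more than sampling noise (chi-square over degrees of freedom 1.36 to 2.97); the 2 highest values, 2.61 and 2.97, were those of replicate 1 with 2 extra copies, so results that change without it are given both ways. Libraries also differed in a trend of count over exon length, with slopes of -0.044 to 0.0058 log2 units per doubling of length with 2 extra copies, -0.0076 to 0.0099 with no extra copy and 0.016 to 0.040 in uninduced cells. Myc, the manipulated gene, stood at 142.2 ± 4.36 CPM with 2 extra copies, 31.59 ± 0.913 CPM with no extra copy and 13.27 ± 1.51 CPM in uninduced cells (SD, n = 3 each). It was 4.52-fold higher with 2 extra copies than with no extra copy (adjusted p = 6.81e-23), the order the labels give. Cells labelled as having no extra copy had 2.36-fold more Myc RNA than uninduced cells (adjusted p = 1.1e-11), with no overlap between their libraries, so the group name stands for the sorted label and not for an uninduced level of Myc. The 8 ESC markers were all detected, with summed levels of 2866 to 3024 CPM, 3070 to 3163 CPM and 3075 to 3134 CPM in the same order of groups. Of these 8, all tested, 0 were called higher and 4 lower with 2 extra copies than with no extra copy. Against uninduced cells, 0 were higher and 2 lower with 2 extra copies, and 3 higher and 2 lower with no extra copy. Means of Pou5f1, Nanog, Esrrb and Klf4 were highest with no extra copy. Those of Sox2, Zfp42 and Tdgf1 were highest in uninduced cells, and that of Utf1 with 2 extra copies. CPM stands for counts scaled to a common library total after TMM scaling. It is a relative level, so a difference in the total RNA of a cell between groups would not be seen. The test was edgeR's quasi-likelihood F-test, its p-values were adjusted by Benjamini-Hochberg over all 13424 genes, and an adjusted p under 0.05 made a call. Adjusted p-values below are from edgeR where no other tool is given.

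Levels of the 35 tested genes varied widely when given per kilobase of exon. Peg10, a gene derived from a retrotransposon and needed for the placenta, was highest in every group, with 79.9 CPM per kb with 2 extra copies, 119 with no extra copy and 90.8 in uninduced cells. Snrpn, which encodes a spliceosome protein, had 60.8 CPM per kb with 2 extra copies, 70.6 in cells with no extra copy and 81.0 in uninduced cells. The tetraspanin gene Cd81 stood at 67.1, 66.6 and 61.6 CPM per kb in that order of groups. The lowest was Kcnq1ot1, the long antisense RNA that silences its neighbours on the paternal copy, with 0.049, 0.055 and 0.063 CPM per kb over an annotated length of 93092 bases. Phlda2 ranked above Mest with 2 extra copies, with 62.4 against 41.2 CPM per kb, and below it with no extra copy, with 44.6 against 56.5 CPM per kb.

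**Figure D1:**
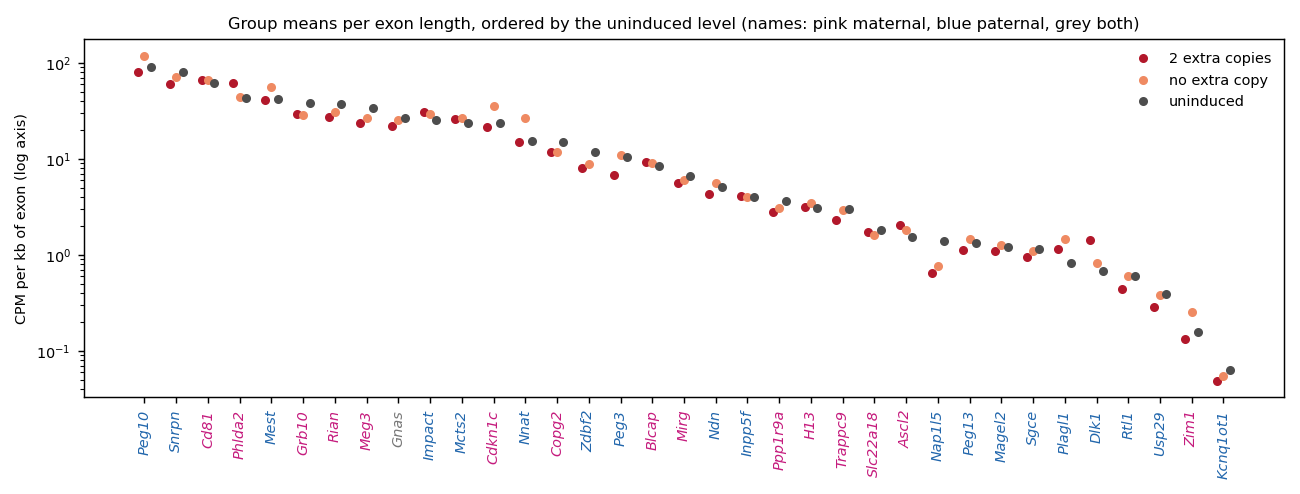
Group means of the 35 tested imprinted genes in CPM per kilobase of exon on a log axis, ordered by the uninduced level, with 2 extra copies in dark red, no extra copy in orange and uninduced in grey. Peg10 is highest in all 3 groups and Kcnq1ot1 lowest; the 3 points of most genes lie close together beside the spread between genes.

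Between 2 extra copies and no extra copy, 13 of the 35 tested imprinted genes were called (37.1%), with 2 higher and 11 lower. Over all tested genes 16.0% were called, 8.30% higher and 7.70% lower. The median log2 change was -0.19 over the 35 genes and -0.01 over all genes. Between 2 extra copies and uninduced cells 17 were called (48.6%), with 5 higher and 12 lower, against 25.0% of all genes, 12.8% higher and 12.1% lower. The median log2 change was -0.24 over the imprinted genes and -0.01 over all. Between no extra copy and uninduced cells 11 were called (31.4%), with 6 higher and 5 lower, against 13.5% of all genes, 7.10% higher and 6.39% lower. Here the median was 0.06, against 0.00 over all genes. The changes were small: the largest called fold was 1.79, 2.13 and 1.74 in the 3 comparisons, and 4, 3 and 3 of the called genes passed 1.5-fold. Without replicate 1 with 2 extra copies the counts of called imprinted genes were 14, 16 and 14. Of the called genes 8 of 13, 12 of 17 and 11 of 11 kept their call under each of the 19 alternatives run, and those that did not are named with their values below.

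Maternal and paternal genes were both among the called. Of the 15 tested maternal genes, 1 was higher and 4 lower with 2 extra copies than with no extra copy, and 2 were higher and 7 lower with 2 extra copies than in uninduced cells. With no extra copy against uninduced cells, 1 maternal gene was higher and 4 lower. Of the 19 tested paternal genes, 1 was higher and 6 lower in the first of these comparisons, 3 were higher and 4 lower in the second, and 5 were higher and 1 lower in the third. Whether maternal and paternal genes differ was not tested.

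**Figure D2:**
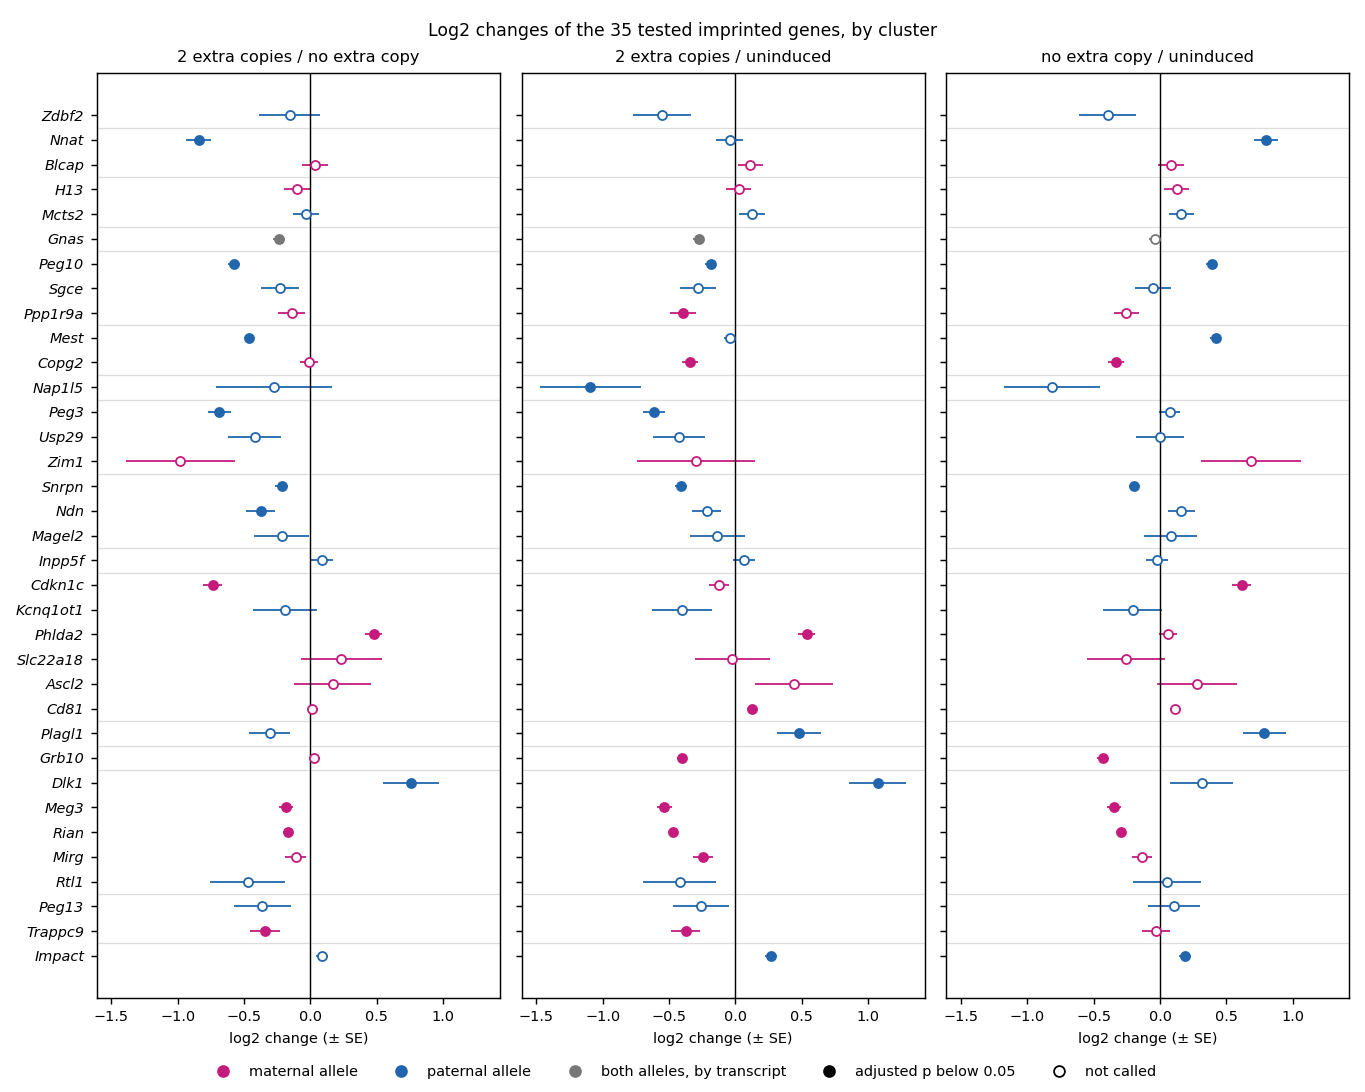
Log2 changes with standard errors of the 35 tested imprinted genes in the 3 comparisons, ordered by chromosomal cluster (grey lines part the clusters), with maternal genes in pink, paternal genes in blue and Gnas in grey. Filled points were called at an adjusted p below 0.05; in the left panel 11 filled points lie below 0 and 2, Phlda2 and Dlk1, lie above it.

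The clearest pattern was that Nnat, Cdkn1c, Peg10 and Mest were higher with no extra copy than in either other group; these 4 genes were grouped after their values were seen. Nnat (ENSMUSG00000067786; chromosome 2, 157560078 to 157562522) encodes neuronatin, a small membrane protein of the endoplasmic reticulum, and is read from the paternal copy. It stood at 29.45, 28.4 and 25.1 CPM with 2 extra copies, at 53.2, 51.9 and 40.01 CPM with no extra copy and at 29.2, 28.5 and 27.1 CPM in uninduced cells. Every library with no extra copy was above every other library, and the other 2 groups overlapped. Nnat was 1.79-fold lower with 2 extra copies than with no extra copy (log2 -0.84, SE 0.093, adjusted p = 8.52e-08) and 1.74-fold higher with no extra copy than in uninduced cells (log2 0.80, SE 0.090, adjusted p = 5.51e-08). Between 2 extra copies and uninduced cells the log2 difference was -0.04 (SE 0.10, adjusted p = 0.802).

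Cdkn1c (ENSMUSG00000037664; chromosome 7, 143458339 to 143461050) encodes p57, an inhibitor of cyclin-dependent kinases that restrains growth, and is read from the maternal copy. Its levels were 39.97, 47.2 and 44.3 CPM with 2 extra copies, 74.8, 77.0 and 64.8 CPM with no extra copy and 49.5, 46.9 and 47.0 CPM in uninduced cells. The libraries with no extra copy lay above all others, and those of the other 2 groups overlapped. Cdkn1c was 1.67-fold lower with 2 extra copies than with no extra copy (log2 -0.74, SE 0.073, adjusted p = 9.45e-09) and 1.53-fold higher with no extra copy than in uninduced cells (log2 0.61, SE 0.070, adjusted p = 6.30e-08). An annotated model, Gm44732, is identical to 60.6% of its transcript, so its counts are uncertain by what the counting gave to that copy.

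Peg10 (ENSMUSG00000092035; chromosome 6, 4747306 to 4760517), read from the paternal copy, had 585.7, 507.9 and 504.1 CPM with 2 extra copies, 803.9, 798.9 and 775.4 CPM with no extra copy and 601.7, 605.2 and 609.9 CPM in uninduced cells. No 2 groups overlapped: the libraries with 2 extra copies were lowest and those with no extra copy highest. It was 1.49-fold lower with 2 extra copies than with no extra copy (log2 -0.58, SE 0.043, adjusted p = 1.23e-09) and 1.14-fold lower than in uninduced cells (log2 -0.19, SE 0.043, adjusted p = 0.00213). With no extra copy it was 1.31-fold higher than in uninduced cells (log2 0.39, SE 0.042, adjusted p = 2.70e-07). Mest, a paternal gene for a hydrolase-like protein that promotes fetal growth, averaged 162.5 ± 1.96 CPM with 2 extra copies, 222.9 ± 9.46 CPM with no extra copy and 167.3 ± 1.88 CPM in uninduced cells (SD, n = 3 each). It was 1.38-fold lower with 2 extra copies than with no extra copy (adjusted p = 1.56e-09) and 1.34-fold higher with no extra copy than in uninduced cells (adjusted p = 2.67e-09). Its exons share 23.1% of their bases with Copg2 on the other strand, and no source used here says that strand was used in counting.

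Plagl1 (ENSMUSG00000019817; chromosome 10, 13060504 to 13131694), a paternal gene for a zinc finger factor known to regulate other imprinted genes, was higher in both induced groups than in uninduced cells. It had 9.29, 9.215 and 8.55 CPM with 2 extra copies, 9.69, 10.9 and 13.3 CPM with no extra copy and 6.75, 6.55 and 6.003 CPM in uninduced cells. The 3 groups did not overlap, with uninduced libraries lowest and those with no extra copy highest. Plagl1 was 1.73-fold higher with no extra copy than in uninduced cells (log2 0.79, SE 0.159, adjusted p = 6.46e-04). With 2 extra copies it was 1.39-fold higher than in uninduced cells (log2 0.48, SE 0.166, adjusted p = 0.0322), a call that was lost when any 1 of the 6 libraries compared was left out (adjusted p of 0.054 to 0.0949) and with DESeq2 (0.153), within a range of 0.0165 to 0.153 over all alternatives. Against no extra copy the log2 difference was -0.31 (SE 0.155, adjusted p = 0.188).

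**Figure D3:**
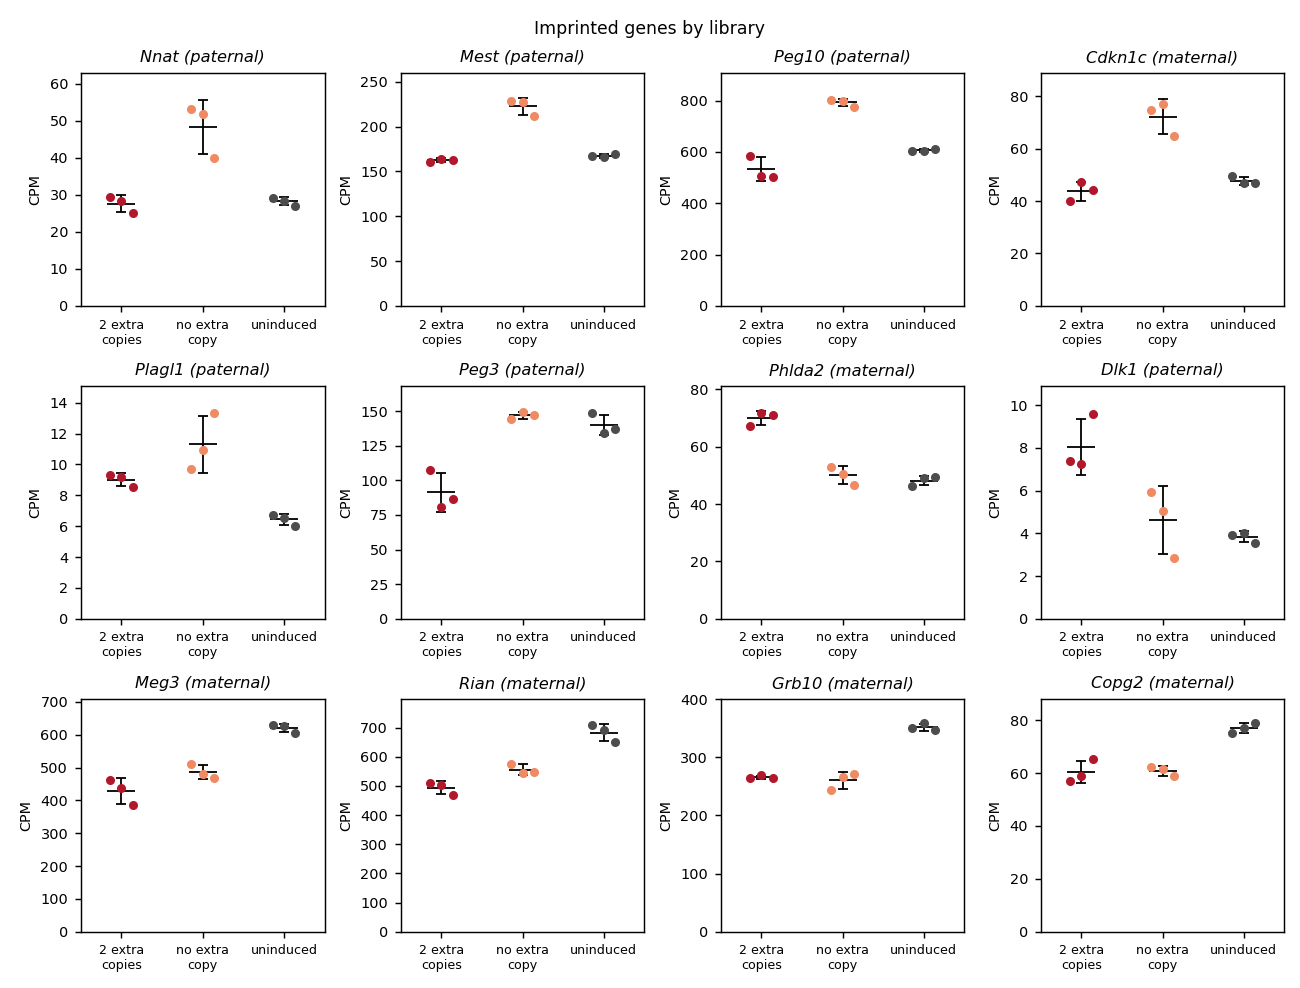
Levels of 12 imprinted genes in CPM for each library (points) with group means and SD (bars, n = 3), for 2 extra copies on the left, no extra copy in the middle and uninduced on the right of each panel, on axes that start at 0. In the upper row Nnat, Mest, Peg10 and Cdkn1c peak with no extra copy, Peg3 is lowest and Phlda2 and Dlk1 highest with 2 extra copies, and Meg3, Rian, Grb10 and Copg2 are highest in uninduced cells.

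Markers of other cell types also differed between the groups. Several were highest with no extra copy, as Nnat, Cdkn1c, Peg10 and Mest were, among them Sparc, Acta2, Krt8 and Sox1. Others were not, such as Fn1 and Pax6, which were highest in uninduced cells. The 10 extraembryonic endoderm markers summed to 188.6 to 203.3 CPM with 2 extra copies, 276.4 to 318.9 CPM with no extra copy and 219.5 to 222.0 CPM in uninduced cells, so that this sum peaked with no extra copy. Of its 6 tested genes, 0 were higher and 4 lower with 2 extra copies than with no extra copy, 0 higher and 2 lower with 2 extra copies than in uninduced cells, and 2 higher and 0 lower with no extra copy than in uninduced cells. Sparc, a matrix protein gene, gave most of that sum and averaged 105.7, 175.0 and 112.9 CPM in the same order of groups. Of the genes that define this cell type, Gata6, Sox17, Sox7 and Foxa2 were below the filter, with at most 15 counts in any library. The means of Sox17 and Foxa2 were highest with no extra copy, that of Gata6 with 2 extra copies and that of Sox7 in uninduced cells. Gata4 averaged 3.14 ± 0.600, 3.87 ± 0.585 and 4.14 ± 0.679 CPM in the same order of groups and was called in no comparison. The 9 trophectoderm markers summed to 190.0 to 207.2, 216.9 to 241.3 and 151.8 to 164.2 CPM in that order and also peaked with no extra copy. Of their 5 tested genes, 0 were higher and 3 lower with 2 extra copies than with no extra copy. In each induced group 2 were higher and 0 lower than in uninduced cells. Cdx2, Elf5, Hand1 and Gata3 were below the filter, with at most 11 counts in any library. Their means were highest with no extra copy, but these differences were not tested. The keratin gene Krt8 averaged 42.8, 62.5 and 23.0 CPM in that order of groups, and Krt18 26.6, 39.3 and 13.2 CPM. Tfap2c, which gave the largest part of the sum, averaged 121.5, 121.3 and 112.5 CPM and was called in no comparison. Eomes averaged 1.65, 3.30 and 2.53 CPM and was lower with 2 extra copies than with no extra copy (adjusted p = 0.0282).

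The 12 fibroblast markers summed to 929 to 1136 CPM with 2 extra copies, 1175 to 1280 CPM with no extra copy and 1189 to 1278 CPM in uninduced cells, with overlap between the last 2 groups. Of the 9 tested, 0 were higher and 4 lower with 2 extra copies than with no extra copy, 5 higher and 1 lower with 2 extra copies than in uninduced cells, and 5 higher and 0 lower with no extra copy than in uninduced cells. Col1a2, a collagen gene of that list, averaged 20.0 ± 3.07 CPM with 2 extra copies, 36.4 ± 2.38 CPM with no extra copy and 9.99 ± 0.676 CPM in uninduced cells (SD, n = 3 each). Fn1, the fibronectin gene that gave most of the sum, averaged 871.5 ± 120 CPM, 1008 ± 54.6 CPM and 1143 ± 48.2 CPM and was the 1 gene lower with 2 extra copies than in uninduced cells (adjusted p = 0.0325), while Lum, Dcn and Postn were below the filter. The 7 neural markers summed to 186.5 to 195.5, 202.1 to 216.8 and 199.5 to 211.0 CPM, also with overlap between the last 2 groups. Of the 5 tested, 0 were higher and 4 lower with 2 extra copies than with no extra copy, 0 higher and 2 lower with 2 extra copies than in uninduced cells, and 1 higher and 0 lower with no extra copy than in uninduced cells. These counts stand beside the shares over all genes given above, 8.30% higher and 7.70% lower, 12.8% and 12.1%, and 7.10% and 6.39% in the 3 comparisons. The part of these cell types in the imprinted genes' results was not tested.

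Phlda2 and Dlk1 were the only ones of the 40 imprinted genes called higher with 2 extra copies than with no extra copy. Phlda2 (ENSMUSG00000010760; chromosome 7, 143501545 to 143503150), a maternal gene whose product restrains growth of the placenta, had 67.1, 71.7 and 71.0 CPM with 2 extra copies, 52.9, 50.5 and 46.7 CPM with no extra copy and 46.4, 48.9 and 49.3 CPM in uninduced cells. The libraries with 2 extra copies were above all others, and the other 2 groups overlapped. It was 1.39-fold higher with 2 extra copies than with no extra copy (log2 0.48, SE 0.066, adjusted p = 3.64e-06) and 1.45-fold higher than in uninduced cells (log2 0.54, SE 0.065, adjusted p = 1.26e-07). With no extra copy it differed from uninduced cells by a log2 of 0.06 (SE 0.068, adjusted p = 0.619).

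Dlk1 (ENSMUSG00000040856; chromosome 12, 109452823 to 109463336), a paternal gene for a membrane protein related to the Notch ligands, was counted at low depth, with 12 to 66 expected counts per library. Its levels were 7.36, 7.23 and 9.56 CPM with 2 extra copies, 5.95, 5.02 and 2.86 CPM with no extra copy and 3.94, 4.03 and 3.54 CPM in uninduced cells. The libraries with 2 extra copies were above all others, and the library of replicate 3 with no extra copy was the lowest of the 9. Dlk1 was 2.10-fold higher with 2 extra copies than in uninduced cells (log2 1.07, SE 0.216, adjusted p = 3.20e-04). It was 1.69-fold higher than with no extra copy (log2 0.76, SE 0.213, adjusted p = 0.0123). That second call was lost without replicate 3 of either group (adjusted p of 0.064 to 0.1) and with DESeq2 (0.082), within a range of 0.00483 to 0.1 over the alternatives.

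The maternal noncoding RNAs of the same cluster, Meg3, Rian and Mirg, host microRNAs and small nucleolar RNAs and are read in the same direction. Meg3 (ENSMUSG00000021268; chromosome 12, 109541001 to 109571726) had 463.2, 437.6 and 385.9 CPM with 2 extra copies, 511.0, 481.8 and 467.5 CPM with no extra copy and 628.7, 625.5 and 606.7 CPM in uninduced cells. Every library of the induced cultures was below every uninduced library, and those with 2 extra copies were all below those with no extra copy. Meg3 was 1.45-fold lower with 2 extra copies than in uninduced cells (log2 -0.53, SE 0.053, adjusted p = 3.17e-06) and 1.27-fold lower with no extra copy than in uninduced cells (log2 -0.35, SE 0.053, adjusted p = 3.55e-04). Rian averaged 494.3 ± 23.1 CPM with 2 extra copies, 556.2 ± 17.5 CPM with no extra copy and 683.3 ± 30.4 CPM in uninduced cells (SD, n = 3 each). It was 1.38-fold lower with 2 extra copies (adjusted p = 5.90e-11) and 1.23-fold lower with no extra copy (adjusted p = 8.47e-07) than in uninduced cells. Mirg averaged 41.0 ± 3.81, 44.4 ± 3.15 and 48.4 ± 1.04 CPM in the 3 groups and was 1.18-fold lower with 2 extra copies than in uninduced cells (adjusted p = 0.0171). The Mirg call was lost without replicate 1 or 3 with 2 extra copies, without replicate 2 or 3 of the uninduced cells (adjusted p of 0.0536 to 0.137) and with DESeq2 (0.136), within a range of 0.00631 to 0.137.

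Both long RNAs were also called lower with 2 extra copies than with no extra copy, Meg3 by 1.14-fold (log2 -0.19, SE 0.054, adjusted p = 0.0300) and Rian by 1.13-fold (log2 -0.17, SE 0.040, adjusted p = 0.00239). These calls ended once the trend over exon length of each library was removed (log2 -0.08 and adjusted p = 0.279 for Meg3, log2 -0.06 and adjusted p = 0.521 for Rian). The exon lengths are 18089 bases for Meg3 and 18234 bases for Rian. The same correction took their log2 change with 2 extra copies against uninduced cells to -0.34 for Meg3 and -0.27 for Rian, both still called. The Meg3 call between 2 extra copies and no extra copy was also lost without replicate 2 or 3 with 2 extra copies, replicate 1 or 2 with no extra copy, or replicate 1 or 2 of the uninduced cells (adjusted p of 0.0504 to 0.125), or with only these 2 groups in the fit (0.0901), and its range was 2.11e-04 to 0.279. Without replicate 3 with 2 extra copies the log2 change of Meg3 was -0.10 and the Rian call was lost (adjusted p = 0.0573, range 4.29e-04 to 0.589). Rtl1, the paternal retrotransposon-derived gene between them, was not called, with 2.81 ± 0.493, 3.81 ± 0.621 and 3.78 ± 1.29 CPM in the 3 groups.

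Peg3, Gnas, Trappc9, Ndn and Snrpn were lower with 2 extra copies than with no extra copy. Peg3 (ENSMUSG00000002265; chromosome 7, 6703892 to 6730431), a paternal zinc finger gene, had 107.5, 80.6 and 86.5 CPM with 2 extra copies, 144.5, 149.2 and 147.2 CPM with no extra copy and 148.6, 134.3 and 137.2 CPM in uninduced cells. All 3 libraries with 2 extra copies were below the others, and the other 2 groups overlapped. Peg3 was 1.61-fold lower with 2 extra copies than with no extra copy (log2 -0.69, SE 0.084, adjusted p = 2.12e-04) and 1.53-fold lower than in uninduced cells (log2 -0.62, SE 0.083, adjusted p = 2.38e-04). Usp29, a ubiquitin protease gene that starts beside Peg3 on the other strand, averaged 5.17 ± 0.816, 6.98 ± 1.35 and 6.999 ± 0.591 CPM and was not called (log2 -0.42, SE 0.200, adjusted p = 0.157 for 2 extra copies against no extra copy). Its exons overlap Zim3, which also matches 96.8% of a transcript, so its counts are uncertain. The maternal neighbour Zim1, another zinc finger gene, averaged 1.08 ± 0.499, 2.06 ± 0.361 and 1.28 ± 0.439 CPM and was not called, with adjusted p = 0.104 in the same comparison.

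Gnas, which encodes the stimulatory G protein subunit and several other imprinted transcripts, averaged 244.3 ± 12.8 CPM with 2 extra copies, 287.4 ± 12.8 CPM with no extra copy and 296.5 ± 11.2 CPM in uninduced cells (SD, n = 3 each). It was 1.18-fold lower with 2 extra copies than with no extra copy (adjusted p = 2.18e-04) and 1.21-fold lower than in uninduced cells (adjusted p = 1.02e-05), a log2 of -0.28 that moved to -0.18 with the length correction and stayed called. Antisense genes, among them Gm20721, cover 22.0% of its exons and the counts do not separate its transcripts. Gm20721 also matches 86.6% of a transcript, so the counts of Gnas are uncertain. Snrpn averaged 131.3 ± 3.77, 152.4 ± 3.75 and 174.8 ± 7.71 CPM in the same order and was lower in each comparison: 1.16-fold with 2 extra copies against no extra copy (adjusted p = 0.00107), 1.33-fold with 2 extra copies against uninduced cells (adjusted p = 1.94e-08) and 1.14-fold with no extra copy against uninduced cells (adjusted p = 0.00230). Snurf and Gm38393 on the same strand share 27.3% of its exonic bases, and the value of Snrpn alone is uncertain.

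Ndn, a paternal gene for necdin, a growth suppressor of neurons, averaged 16.1 ± 0.486 CPM with 2 extra copies, 20.7 ± 0.928 CPM with no extra copy and 18.65 ± 0.974 CPM in uninduced cells, and was 1.30-fold lower with 2 extra copies than with no extra copy (adjusted p = 0.0149). The call was lost without replicate 2 of either of these groups (adjusted p of 0.054 to 0.097) and with DESeq2 (0.157), within a range of 0.00821 to 0.157. Its neighbour Magel2, a regulator of ubiquitin ligases, averaged 5.08 ± 0.878, 5.82 ± 0.610 and 5.58 ± 0.651 CPM and was not called. Trappc9, a gene of vesicle trafficking, averaged 18.4 ± 0.167 CPM with 2 extra copies, 23.0 ± 1.93 CPM with no extra copy and 23.7 ± 3.42 CPM in uninduced cells. It was 1.27-fold lower with 2 extra copies than with no extra copy (adjusted p = 0.0336) and 1.30-fold lower than in uninduced cells (adjusted p = 0.0110). The first of these calls was lost without any 1 of the libraries with 2 extra copies or replicate 1 or 2 with no extra copy (adjusted p of 0.0555 to 0.204) and with DESeq2 (0.216), and its range was 0.0201 to 0.216. The second was lost without replicate 2 of the uninduced cells (log2 -0.25, adjusted p = 0.142) and with DESeq2 (0.0959), within a range of 0.00479 to 0.142. Peg13, the paternal noncoding RNA inside Trappc9, averaged 5.25 ± 0.635, 6.85 ± 2.13 and 6.28 ± 0.164 CPM and was not called.

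Another set of genes differed between the induced cultures and uninduced cells, with no call between 2 extra copies and no extra copy. Grb10, an adaptor that dampens insulin receptor signalling and is read from the maternal copy in most tissues, averaged 265.9 ± 2.57 CPM with 2 extra copies, 260.6 ± 14.6 CPM with no extra copy and 351.5 ± 6.08 CPM in uninduced cells (SD, n = 3 each). It was 1.32-fold lower with 2 extra copies (adjusted p = 2.90e-09) and 1.35-fold lower with no extra copy (adjusted p = 8.86e-10) than in uninduced cells. Copg2, a gene for a subunit of the COPI vesicle coat, averaged 60.5 ± 4.31, 60.95 ± 1.88 and 77.05 ± 1.88 CPM and was 1.27-fold lower with 2 extra copies (adjusted p = 7.17e-05) and 1.26-fold lower with no extra copy (adjusted p = 1.92e-04) than in uninduced cells. Its log2 difference between 2 extra copies and no extra copy was -0.01 (SE 0.065, adjusted p = 0.937), and Mest on the other strand covers 17.8% of its exons. Impact, a paternal gene for an inhibitor of the amino acid sensor GCN2, averaged 157.9 ± 1.72, 149.4 ± 6.47 and 130.7 ± 2.46 CPM. It was 1.21-fold higher with 2 extra copies (adjusted p = 2.20e-05) and 1.14-fold higher with no extra copy (adjusted p = 0.00418) than in uninduced cells.

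Cd81, Ppp1r9a and Nap1l5 were, like Mirg, called only between 2 extra copies and uninduced cells. Nap1l5 (ENSMUSG00000055430; chromosome 6, 58905233 to 58907076), a paternal gene related to nucleosome assembly proteins, was near the limit of the filter, with 3 to 20 expected counts per library. It had 0.526, 1.45 and 1.59 CPM with 2 extra copies, 2.21, 1.34 and 0.714 CPM with no extra copy and 2.81, 2.52 and 2.46 CPM in uninduced cells. All uninduced libraries were above the others, and the induced groups overlapped. It was 2.13-fold lower with 2 extra copies than in uninduced cells (log2 -1.09, SE 0.381, adjusted p = 0.0327). That call was lost without replicate 1 or 2 with 2 extra copies or any 1 of the uninduced libraries (adjusted p of 0.0543 to 0.167), within a range of 0.0233 to 0.167.

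Ppp1r9a, the gene for neurabin, averaged 40.9 ± 8.17 CPM with 2 extra copies, 44.4 ± 2.35 CPM with no extra copy and 53.3 ± 0.696 CPM in uninduced cells, and was 1.32-fold lower with 2 extra copies than in uninduced cells (log2 -0.40, adjusted p = 0.00505). The log2 change moved to -0.25 with the length correction and to -0.26 without replicate 3 with 2 extra copies, and stayed called in both. Without replicate 1 with 2 extra copies it was also lower with 2 extra copies than with no extra copy (adjusted p = 0.0126, against 0.397 with it, range 0.0126 to 0.994) and with no extra copy than in uninduced cells (adjusted p of 0.00638 to 0.0180 without replicate 1 or 3, against 0.0866 with both, range 0.00605 to 0.262). Cd81 averaged 193.3 ± 7.77, 191.7 ± 1.59 and 177.2 ± 6.53 CPM and was 1.09-fold higher with 2 extra copies than in uninduced cells (adjusted p = 0.0232). That call was lost without replicate 3 with 2 extra copies, without replicate 1 or 2 of the uninduced cells (adjusted p of 0.0743 to 0.153), with DESeq2 (0.0892), with library size alone, with no filter and with the length correction (0.0513 to 0.0578), within a range of 0.00582 to 0.153. Between no extra copy and uninduced cells the Cd81 difference was not called (adjusted p = 0.0664), but was called without replicate 1 with 2 extra copies or replicate 3 of the uninduced cells (0.0458 to 0.0467), with library size alone (0.0294), with the replicate block (0.0421) and with only these 2 groups in the fit (0.0447), within a range of 0.0294 to 0.274.

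Zdbf2, a paternal zinc finger gene, was changed by the presence of 1 library. It had 141.1, 88.0 and 76.6 CPM with 2 extra copies, 104.7, 118.1 and 114.1 CPM with no extra copy and 161.4, 144.2 and 139.2 CPM in uninduced cells. Replicate 1 with 2 extra copies lay among the uninduced libraries, and the other 2 libraries of its group were the lowest of the 9. With all libraries no comparison was called (log2 -0.16, -0.55 and -0.40, with adjusted p = 0.727, 0.122 and 0.315). Without replicate 1 with 2 extra copies all 3 were called lower, with a log2 of -0.45 (adjusted p = 1.94e-04) for 2 extra copies against no extra copy, -0.84 (adjusted p = 9.54e-09) for 2 extra copies against uninduced cells and -0.40 (adjusted p = 4.31e-05) for no extra copy against uninduced cells. Over all alternatives the adjusted p ranged from 1.94e-04 to 0.947, from 9.54e-09 to 0.298 and from 6.04e-06 to 0.535 in these comparisons.

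Of the 35 tested genes 14 were called in no comparison: Ascl2, Blcap, H13, Inpp5f, Kcnq1ot1, Magel2, Mcts2, Peg13, Rtl1, Sgce, Slc22a18, Usp29, Zdbf2 and Zim1. Blcap, a gene of unsettled function within which Nnat lies, averaged 28.05 ± 0.805, 27.6 ± 3.52 and 25.9 ± 1.79 CPM. H13, the gene for signal peptide peptidase, averaged 27.9 ± 1.94, 30.6 ± 4.28 and 27.35 ± 0.586 CPM, and Mcts2, a retrogene inside it, averaged 23.6 ± 1.21, 24.3 ± 0.667 and 21.6 ± 1.167 CPM. Of these, H13 is uncertain because Gm26841 on the other strand matches 95.6% of a transcript. Inpp5f, a gene for an inositol phosphatase, averaged 34.5 ± 1.34, 32.95 ± 2.64 and 32.9 ± 0.969 CPM, and Sgce, the gene for epsilon-sarcoglycan, 9.96 ± 0.476, 11.6 ± 1.20 and 12.1 ± 0.400 CPM. In the Kcnq1ot1 cluster the trophoblast factor gene Ascl2 averaged 3.36 ± 0.661, 2.95 ± 0.894 and 2.48 ± 0.774 CPM, and the transporter gene Slc22a18 averaged 2.97 ± 0.724, 2.73 ± 0.951 and 3.06 ± 0.338 CPM. Kcnq1ot1 itself averaged 4.52 ± 1.62, 5.14 ± 0.523 and 5.89 ± 0.764 CPM, and it was called lower with 2 extra copies than in uninduced cells only without replicate 1 with 2 extra copies (log2 -0.67, adjusted p = 0.0432, against 0.208 with it, range 0.0432 to 0.759). All values in this paragraph are in the order 2 extra copies, no extra copy and uninduced (SD, n = 3 each).

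The 5 genes below the filter had few counts in every library. The potassium channel gene Kcnk9 had 0 in all 9. Asb4, an ankyrin repeat gene, had 3 to 9 expected counts per library, the transcription factor gene Klf14 had 0 to 9 and Dio3, which encodes a thyroid hormone deiodinase, had 0 to 8. The tetraspanin gene Tspan32 had 1 to 12.13 expected counts, at 0.526, 0.723 and 0.145 CPM with 2 extra copies, 1.19, 1.12 and 2.86 CPM with no extra copy and 1.55, 0.378 and 0.308 CPM in uninduced cells. With no filter Tspan32 was lower with 2 extra copies than with no extra copy (log2 -1.79, adjusted p = 0.0322), and the other comparisons of Asb4, Klf14, Tspan32 and Dio3 had adjusted p of 0.253 or above. At this depth changes in these 5 genes were otherwise not detectable.

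Neighbouring genes were then compared within each library. The ratio of their expected counts within a library does not depend on scaling between libraries. The trend of count over exon length was not removed from these ratios. For Nnat over Blcap it was 1.07, 1.03 and 0.865 with 2 extra copies, 1.68, 2.05 and 1.56 in cells with no extra copy and 1.05, 1.13 and 1.1 in uninduced cells. For Cdkn1c over Phlda2, both read from the maternal copy, it was 0.595, 0.657 and 0.624 with 2 extra copies, 1.41, 1.53 and 1.39 in cells with no extra copy and 1.07, 0.959 and 0.952 in uninduced cells. In both pairs the libraries with no extra copy were highest, and for Cdkn1c over Phlda2 none of the 3 groups overlapped.

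For Mest over Copg2, read from opposite parental copies, the mean ratio was 2.70 ± 0.175 with 2 extra copies, 3.66 ± 0.0451 with no extra copy and 2.17 ± 0.0462 in uninduced cells (SD, n = 3 each), again with no overlap between groups. Peg10 over Sgce, which start beside each other on opposite strands and are both paternal, averaged 53.5 ± 4.14, 69.0 ± 8.47 and 50.2 ± 1.33 in the same order. Within the noncoding RNAs of the Dlk1 cluster, Meg3 over Rian was 0.867 ± 0.0409, 0.875 ± 0.0170 and 0.909 ± 0.0235 in the 3 groups and 0.825 to 0.934 over all 9 libraries. Meg3 over Mirg ran from 9.65 to 11.7 with 2 extra copies, 10.6 to 11.7 with no extra copy and 12.3 to 13.3 in uninduced cells, with both induced groups below every uninduced library. Rian over Mirg was 12.1 ± 0.926, 12.6 ± 0.579 and 14.1 ± 0.909, with no overlap between 2 extra copies and uninduced cells. Meg3 and Rian have 18089 and 18234 bases of exon and Mirg 7292. The slopes over exon length were highest in the uninduced libraries, and their part in these ratios was not tested. Ratios of 9 pairs were tested in 27 comparisons by exact permutation, two-sided, for which 0.1 is the lowest p that 3 libraries a side allow. The groups did not overlap in 13 of them, each with exact p = 0.1 and 0.208 after Benjamini-Hochberg adjustment over the 27, so none can pass the threshold in this design. How often the groups fail to overlap for other gene pairs was not counted, so the 13 are a description and no result about imprinted neighbours. For Meg3 over Rian the exact p was 0.8, 0.3 and 0.2 in the 3 comparisons.

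**Figure D4:**
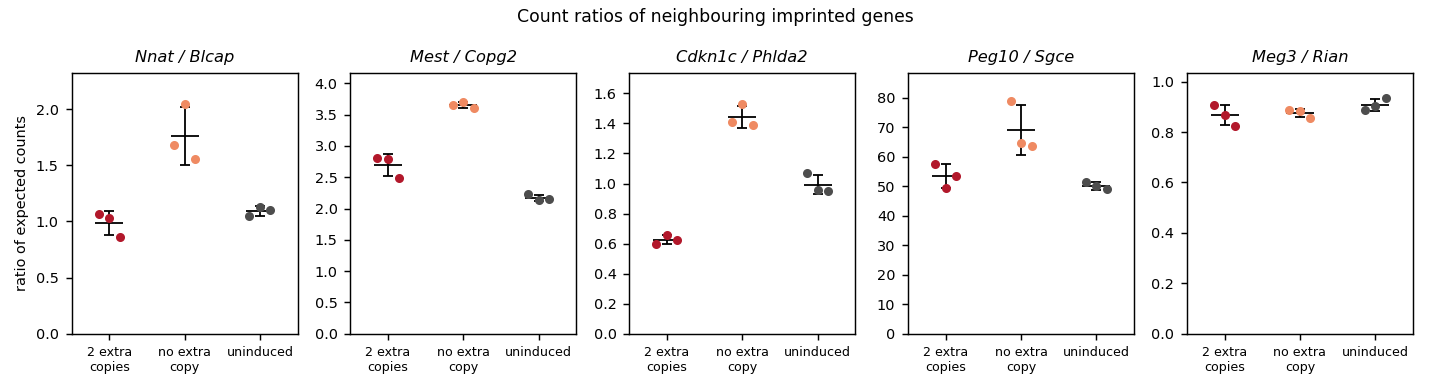
Ratio of expected counts of 5 pairs of neighbouring imprinted genes in each library (points) with group mean and SD (bars, n = 3), for 2 extra copies on the left, no extra copy in the middle and uninduced on the right, on axes that start at 0. The ratios Nnat/Blcap, Mest/Copg2, Cdkn1c/Phlda2 and Peg10/Sgce are highest with no extra copy, and Meg3/Rian stays between 0.825 and 0.934.

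Summed over the 20 paternal genes, the level was 1331 ± 89.1 CPM with 2 extra copies, 1761 ± 26.2 CPM with no extra copy and 1522 ± 10.6 CPM in uninduced cells (SD, n = 3 each). Over the 19 maternal genes it was 1722 ± 58.6, 1859 ± 36.0 and 2192 ± 41.3 CPM in the same order. The paternal sum was highest with no extra copy and the maternal sum in uninduced cells, with no overlap between groups in either. Peg10 makes up the largest part of the paternal sum, and Meg3 and Rian the largest part of the maternal one, so each sum mostly follows those genes.

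Genes for proteins that keep or erase imprints were listed beside the imprinted genes. Of 18 such genes, all tested, 2 were higher and 3 lower with 2 extra copies than with no extra copy (27.8%, against 16.0% of all genes). With 2 extra copies against uninduced cells 2 were higher and 5 lower (38.9%, against 25.0% of all genes), and with no extra copy against uninduced cells 3 were higher and 5 lower (44.4%, against 13.5%). Zfp57 averaged 232.3 ± 8.51 CPM with 2 extra copies, 268.5 ± 13.2 CPM with no extra copy and 259.3 ± 1.09 CPM in uninduced cells (SD, n = 3 each), and was 1.15-fold lower with 2 extra copies than with no extra copy (adjusted p = 7.39e-04) and 1.12-fold lower than in uninduced cells (adjusted p = 0.00424). The methyltransferase gene Dnmt3b averaged 513.1 ± 16.4, 433.2 ± 7.68 and 498.5 ± 12.0 CPM, 1.18-fold higher with 2 extra copies than with no extra copy (adjusted p = 1.18e-05) and 1.15-fold lower with no extra copy than in uninduced cells (adjusted p = 1.46e-04). Its cofactor gene Dnmt3l went the other way, with 331.4 ± 23.6, 370.2 ± 5.28 and 322.1 ± 11.2 CPM (adjusted p = 0.0103 with 2 extra copies against no extra copy and 0.00116 with no extra copy against uninduced cells). Trim28 and the maintenance genes Dnmt1 and Uhrf1 were not called in any comparison.

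Of 25 other imprinted genes listed, 24 were in the table and 16 passed the filter, of which 1 was higher and 3 lower with 2 extra copies than with no extra copy (25.0%, against 16.0% of all genes). With 2 extra copies against uninduced cells 1 was higher and 2 lower (18.8%, below the 25.0% of all genes), and with no extra copy against uninduced cells 4 were higher and 0 lower (25.0%, against 13.5%). Sfmbt2, a placental Polycomb gene, averaged 58.1 ± 1.55 CPM with 2 extra copies, 56.9 ± 1.49 CPM with no extra copy and 41.7 ± 0.953 CPM in uninduced cells, 1.39-fold (adjusted p = 1.72e-06) and 1.36-fold (adjusted p = 8.39e-06) higher in the induced groups than in uninduced cells. Igf2 and H19, of the imprinted domain that was left out of the 40 genes, had their highest level with no extra copy as Nnat, Cdkn1c, Peg10 and Mest did. Igf2 averaged 8.65 ± 1.40, 26.5 ± 0.853 and 10.9 ± 2.40 CPM and H19 93.8 ± 5.73, 221.4 ± 25.1 and 114.8 ± 1.51 CPM in the order 2 extra copies, no extra copy and uninduced.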

How the data were processed

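Expected counts were deposited, 1 per gene and library, made by the authors with RSEM 1.17 (per the submitters' processing notes) on GRCm38, annotation release 84 (per the file headers). Picard, limma and cutadapt are named in the notes with no role, and an aligner is not named in these sources. The reads were single-end and 75 bases long, per the labels. RSEM splits ambiguous reads between genes, so overlapping genes and close copies can share counts.

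Counts were rounded and filtered with filterByExpr by group. Tests used edgeR 4.0.16 in R 4.3.3 (robust quasi-likelihood fit, TMM scaling, all 9 libraries, 1 coefficient per group). The tested genes held 99.8% of the counts, and the common coefficient of variation was 0.0394. The test was checked on simulated counts first. Names, coordinates and exon lengths came from GENCODE M21 on GRCm38, and close copies (95% identity over 50% of a transcript) from minimap2 2.31-r1302. Counting intervals are not given; the spread is that between 3 libraries.

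The imprinted genes and the other lists were chosen with earlier results of these data known, and textbook parental alleles were assigned by hand. Values in every library are given for genes called in at least 1 comparison with an absolute log2 change of at least 0.5, and for Zdbf2 and Tspan32, which were added after their values were seen. Of each other list the 3 smallest p-values per direction set which genes could be named, and of marker lists the defining markers. The alternatives were DESeq2 1.42.0, limma-voom (limma 3.58.1), 2 other scalings, 2 other filters, only the 2 groups compared, a replicate block, a lowess correction of the trend over exon length (span 0.3) with and without that block, and leaving out each of the 9 libraries.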

Additional observations from a re-analysis of the deposited data

How the results depend on the processing

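No change of direction of a called value was found among the 35 tested imprinted genes under the 19 alternatives, and the counts of called imprinted genes stayed within 1.5 times of those reported. DESeq2 gave 10, 12 and 11 called imprinted genes (2 extra copies against no extra copy, 2 extra copies against uninduced and no extra copy against uninduced, in that order here and below), where edgeR gave 13, 17 and 11. Over all genes DESeq2 called 1061, 1889 and 806, against 2148, 3350 and 1811; the cause was not tested. Leaving out 1 library gave 1397 to 2564, 2453 to 3719 and 1177 to 2201 called genes over all, and 9 to 14, 12 to 17 and 11 to 14 imprinted genes. Scaling by library size alone moved the share of higher calls among all genes to 36.3%, from 51.9%, in the first comparison, while the imprinted genes kept 2 higher and 11 lower; the DESeq2 share was 60.6%. Deviations of same-numbered libraries from their group means correlated with r of -0.081 to 0.081. These deviations also hold sampling noise, so the values cannot tell whether a number marks a shared culture or day. With the replicate block 13, 17 and 12 imprinted genes were called, of 2233, 3440 and 1933 called genes in all. Peg3 was called between no extra copy and uninduced cells only with the length correction and the replicate block together (log2 0.13, adjusted p = 0.0478, range 0.0478 to 0.853). The length correction with the block also ended the calls of Mirg (2 extra copies against uninduced, adjusted p = 0.0521) and Trappc9 (2 extra copies against no extra copy, adjusted p = 0.0632). With only the 2 groups compared, Zdbf2 (6.04e-06), Ppp1r9a (0.00605) and Cd81 (0.0447) gained a call between no extra copy and uninduced cells; their ranges stand with the results above. Depth limits the genes with few counts: Nap1l5, Dlk1, Zim1, Ascl2, Slc22a18 and the 5 genes below the filter. Groups of 3 libraries are too small for a formal test for outlying samples.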
